A study of Mus musculus with 25 samples.

Results

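The 8 genes described here encode parts and partners of the phagocyte NADPH oxidase and its oxidative burst: Cybb, Cyba, Ncf1, Ncf4, Rac2, Hvcn1, Mpo and Sod2. They were chosen by symbol from the 38087 genes listed in each of 2 deposited tables, and all 8 were present in both. RNA sequencing had been done on leukocytes sorted from the tibialis anterior muscle of male C57BL/6J mice aged 2 to 4 months whose fibres had been killed by an injection of cardiotoxin, from snake venom. CD45+ cells were enriched magnetically and sorted into neutrophils (Ly6Ghigh, Ly6Cint and F4/80-) at day 1 (3 samples), Ly6Clow F4/80high macrophages at day 4 (2 samples), Ly6Chigh F4/80low macrophages at day 4 (2 samples), Ly6Clow macrophages at day 2 (3 samples) and Ly6Chigh macrophages at day 2 (3 samples). The muscle table holds 1 column for each of these 5 groups, the authors' mean of log2 normalised counts, so no value from muscle has an error or a test, and every muscle difference below is a description with no measure of the spread between samples. The other table holds bone marrow-derived macrophages (BMDM) from male C57BL/6J mice aged 8 to 10 weeks, grown for 7 days with 10 ng/ml of the growth factor M-CSF, replated without it and rested for 24 h. Of its libraries, 3 came from cells given 10 nM resolvin D2 (RvD2, a lipid mediator derived from an omega-3 fatty acid) for 4 h, and 3 from untreated cells.

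The oxidase moves electrons from NADPH inside the cell across a membrane to oxygen, which makes superoxide in the phagosome or outside the cell. Its membrane core is a heterodimer of gp91phox (Cybb), which carries the electrons, and p22phox (Cyba), which stabilises it. In a resting phagocyte activating subunits, among them p47phox (Ncf1) and p40phox (Ncf4), stay in the cytosol, and together with the small GTPase Rac they join the core when the cell is stimulated. The proton channel encoded by Hvcn1 carries the charge that balances the electron flow, myeloperoxidase (Mpo) turns hydrogen peroxide and chloride into hypochlorous acid, and mitochondrial superoxide dismutase (Sod2) converts superoxide made in mitochondria. Loss of an oxidase subunit in humans causes chronic granulomatous disease.

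Cell identity was checked with marker lists before the genes were compared. The summed level of 14 neutrophil markers was 431451 normalised counts in neutrophils, against 2418 to 3062 in the 4 macrophage groups, where Ly6g, Camp, Ngp and Stfa3 were all listed at 0. Csf3r led these macrophage sums, at log2 levels of 10.36 and 10.42 in Ly6Clow and Ly6Chigh cells at day 2 and 11.21 and 11.40 at day 4. The summed level of 12 macrophage markers was 42334 in neutrophils, against 232879 to 438333 in the macrophage groups. The 9 eosinophil and mast cell markers summed to 5597 in neutrophils, against 30.0 to 111 in the macrophage groups, with Epx and Ms4a2 listed at 0 in all 5 groups, and Siglec5 alone made up 5466 of the neutrophil sum. The 7 endothelial markers summed to 4760 in neutrophils, against 798 to 1669 in the macrophage groups. Of these, 2 were at 50 or more in neutrophils, against 3 to 5 in the macrophage groups. Vwf led them, at a log2 level of 12.10 in neutrophils and 6.93 to 7.94 in macrophages. Ly6Chigh cells at day 4 held more T and NK cell, fibroblast and dendritic cell transcripts than the other macrophage groups. Their 12 T and NK cell markers summed to 1196 normalised counts, against 12.8 to 46.4 in the other 3 macrophage groups, and their 10 fibroblast markers to 27258, against 2194 in Ly6Clow cells at day 4 and 102 to 301 at day 2. Their 6 B cell markers summed to 211, against 45.0 to 169, with Pax5 listed at 0 in all 4 groups, and their 11 dendritic cell markers to 8173, against 3144 to 7221. Bst2 and Tcf4 made up 4724 and 1253 of that sum, and 5903 and 1168 of the 7221 in Ly6Clow cells at day 4. Of the 11, 9 were at 50 or more in Ly6Chigh cells at day 4, against 2 in each other macrophage group, and at day 4 Spib was 31.4-fold, Siglech 21.6-fold and Ccr9 20.1-fold lower in Ly6Clow than in Ly6Chigh cells. The 10 muscle markers were highest in Ly6Clow cells at day 4, with a sum of 1195, against 694 in Ly6Chigh cells at day 4 and 306 and 251 in Ly6Clow and Ly6Chigh cells at day 2. The part of these transcripts in the results below was not tested.

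The promoters of Cybb and Ncf1 are shown because the patterns of these genes over the 5 muscle groups were the farthest apart of the 8. The windows run from 250 bases before to 50 bases after the gene's start in RefSeq (GRCm38.p6), which held 5 of the 8 genes (Ncf4, Rac2 and Hvcn1 were not among them). Capitals mark GAGGAA on either strand, the core of many sites of PU.1, a transcription factor of myeloid cells.
Cybb, chrX:9469275-9469574, minus strand: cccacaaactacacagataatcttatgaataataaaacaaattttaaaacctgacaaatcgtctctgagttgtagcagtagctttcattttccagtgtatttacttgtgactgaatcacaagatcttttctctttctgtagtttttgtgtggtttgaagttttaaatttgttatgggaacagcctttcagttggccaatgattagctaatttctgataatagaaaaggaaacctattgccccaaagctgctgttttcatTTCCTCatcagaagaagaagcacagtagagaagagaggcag
Ncf1, chr5:134229576-134229875, minus strand: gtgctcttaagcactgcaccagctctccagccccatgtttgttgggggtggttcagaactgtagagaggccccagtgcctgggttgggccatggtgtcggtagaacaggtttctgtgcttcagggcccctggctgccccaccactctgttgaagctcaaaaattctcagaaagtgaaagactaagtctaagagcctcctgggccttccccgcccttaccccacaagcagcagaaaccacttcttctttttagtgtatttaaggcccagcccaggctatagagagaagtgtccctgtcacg
The Cybb window held 1 GAGGAA, read on the strand opposite to the gene at bases 9 to 14 when the start base is counted as 0, and 1 CCAAT at bases -56 to -52. The Ncf1 window held 0 GAGGAA and 0 CCAAT. Searched on both strands, GAGGAA stood in 28.3% of 32851 RefSeq promoter windows of the same length and CCAAT in 37.4%. The shorter GGAA, which lies within every GAGGAA, stood 4 times in the Cybb window and 1 time in the Ncf1 window, and in 96.0% of all windows. Mpo had 2 GAGGAA, Sod2 1 and Cyba 0. These matches describe letters only.

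In injured muscle the 2 chains of the membrane core did not follow each other. On the values as deposited, Cyba was nearly level across all 5 groups, while Cybb was lowest in neutrophils and highest in macrophages at day 4. With neutrophils and each macrophage group in turn set to equal summed counts, Cyba was lower in neutrophils, with log2 ratios of -0.76 to -1.02. The activating subunits Ncf1 and Ncf4 and the GTPase gene Rac2 were highest in neutrophils, where Cybb was lowest. A level per sorted population does not tell fewer cells of a type from less RNA per cell.

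Cybb (chrX:9435252-9487771 in GRCm38/mm10, minus strand) had log2 normalised counts of 10.58 in neutrophils, 14.21 in Ly6Clow cells at day 4, 14.31 in Ly6Chigh cells at day 4, 12.46 in Ly6Clow cells at day 2 and 12.61 in Ly6Chigh cells at day 2. The groups stood in 3 steps, with both day 4 populations at the top, both day 2 populations in the middle and neutrophils at the bottom. Within a day the subsets were less than 0.16 apart on the log2 scale (log2 ratios of -0.10 at day 4 and -0.15 at day 2), whereas the whole range was 3.73. Cyba (chr8:122424776-122432930, minus strand) had log2 normalised counts of 13.35 in neutrophils, 13.29 in Ly6Clow cells at day 4, 13.06 in Ly6Chigh cells at day 4, 13.32 in Ly6Clow cells at day 2 and 13.06 in Ly6Chigh cells at day 2. Its range over the 5 groups was 0.29 on the values as deposited, the narrowest of the 8 genes.

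Ncf1 (chr5:134220053-134229625, minus strand) had a log2 normalised count of 15.04 in neutrophils, against 12.22 in Ly6Clow and 12.16 in Ly6Chigh cells at day 4 and 12.07 in Ly6Clow and 11.87 in Ly6Chigh cells at day 2. The 4 macrophage groups lay within 0.35 of each other, far below the neutrophils. The libraries mark no strand, and an exon of Gtf2ird2 overlaps Ncf1 on the opposite strand, so reads from that stretch cannot be assigned. Gtf2ird2 moved with Ncf1, at 10.94 in neutrophils and 6.46 to 7.68 in the macrophage groups on the same log2 scale, and its part in the Ncf1 values was not tested.

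Ncf4 (chr15:78244801-78262580, plus strand) had a log2 normalised count of 13.69 in neutrophils, against 10.91 in Ly6Clow and 11.35 in Ly6Chigh cells at day 4 and 9.88 in Ly6Clow and 11.14 in Ly6Chigh cells at day 2. Unlike Ncf1, it spread over 1.47 among the macrophage groups, with Ly6Clow cells at day 2 at the bottom. Rac2, which encodes the Rac form found mainly in blood cells, lies 296.6 kb from Ncf4 on the same chromosome (chr15:78559167-78572783, minus strand). Its log2 normalised count was 14.35 in neutrophils, against 11.75 in Ly6Clow and 11.92 in Ly6Chigh cells at day 4 and 11.16 in Ly6Clow and 11.61 in Ly6Chigh cells at day 2. As with Ncf4, Ly6Clow cells at day 2 had the lowest value.

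Hvcn1 (chr5:122206804-122242297, plus strand) had a log2 normalised count of 11.27 in neutrophils, against 11.03 in Ly6Clow and 10.11 in Ly6Chigh cells at day 4 and 10.72 in Ly6Clow and 8.91 in Ly6Chigh cells at day 2. Of the 7 genes at 50 or more it separated the macrophage subsets most at each day, with Ly6Clow above Ly6Chigh at each day. Exons of Tctn1 overlap it on the other strand, at log2 levels of 6.01 to 7.37 in the 5 groups. Sod2 (chr17:13006846-13040063, plus strand) had a log2 normalised count of 12.26 in neutrophils, against 9.30 in Ly6Clow and 9.52 in Ly6Chigh cells at day 4 and 9.91 in Ly6Clow and 10.39 in Ly6Chigh cells at day 2. Both day 2 macrophage groups lay above both day 4 groups, whereas for Cybb both day 4 groups lay above.

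Mpo (chr11:87793581-87804413, plus strand) was close to 0 in every group, so the label of the set does not hold for its transcript in muscle. Myeloperoxidase protein was not measured here. Its mean log2 value corresponded to 3.83 normalised counts in neutrophils, 6.24 in Ly6Clow and 2.66 in Ly6Chigh cells at day 4, and 1.19 in Ly6Clow and 4.48 in Ly6Chigh cells at day 2. In the marrow, Mpo and the proteases of the primary granules are transcribed in neutrophil precursors. Some other genes of that stage were near 0 in the sorted neutrophils too, with Elane at a log2 level of 0.39 and Ctsg and Fcnb listed at 0. Prtn3 was higher, at 5.88 in neutrophils, against 3.93 and 5.19 in Ly6Clow and Ly6Chigh cells at day 2 and 2.60 and 3.46 at day 4. Of the 9 primary granule genes measured, Lyz2, which macrophages also transcribe, was the one abundant gene, at 14.13 in neutrophils, against 16.84 to 17.73 in the macrophage groups.

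**Figure D1:**
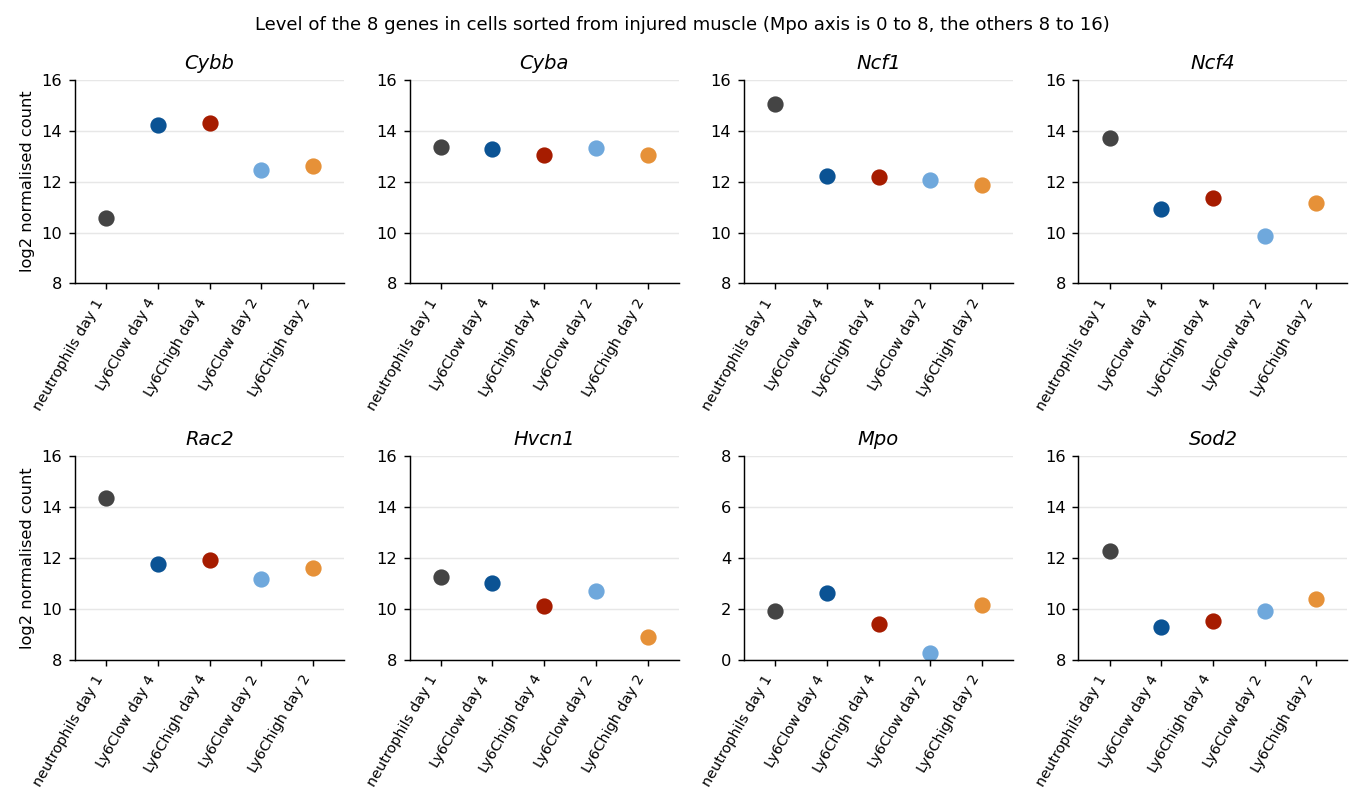
Log2 normalised count (y axis) of each of the 8 genes in the 5 sorted groups (x axis), 1 point per group, which is the authors' mean over 2 or 3 samples, with no error available. On the values as deposited, Cybb is lowest and Ncf1, Ncf4 and Rac2 are highest in neutrophils, Cyba stays between 13.06 and 13.35, and Mpo stays under 3.

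The balance between subunit transcripts was computed within each group, where scaling between groups has no effect. Lengths were the union of all annotated exons (1039 bases for Cyba, 3663 for Ncf1 and 5808 for Cybb), which can exceed the transcript made. A ratio near 1 and the order of genes thus depend on these lengths, whereas the change of a ratio between groups does not. Per kilobase of exon, Cybb stood at 0.0263 of Cyba in neutrophils, against 0.339 and 0.426 in Ly6Clow and Ly6Chigh cells at day 4 and 0.098 and 0.131 in Ly6Clow and Ly6Chigh cells at day 2. On these lengths Cyba transcripts exceeded Cybb transcripts in all 5 groups, least so at day 4. The ratio of Cybb to Ncf1 per kilobase was 0.0287 in neutrophils, against 2.51 and 2.79 in Ly6Clow and Ly6Chigh cells at day 4 and 0.827 and 1.05 at day 2. The ratio of Ncf1 to Cyba was 0.916 in neutrophils and 0.119 to 0.152 in the macrophage groups. On these lengths the genes were near equal per kilobase in neutrophils alone among the 5 groups. Ncf4 to Ncf1 was 0.715 in neutrophils, 0.730 and 1.03 in Ly6Clow and Ly6Chigh cells at day 4, and 0.399 and 1.09 in Ly6Clow and Ly6Chigh cells at day 2. On the per-kilobase scale the order in neutrophils was Cyba (10019), Ncf1 (9176), Rac2 (6731), Ncf4 (6559), Hvcn1 (692), Sod2 (489), Cybb (264) and Mpo (1.12), where neighbours as close as Rac2 and Ncf4 could not be ordered without an error. In Ly6Chigh cells at day 4 the order was Cyba (8221), Cybb (3500), Ncf4 (1290), Ncf1 (1253), Rac2 (1245), Hvcn1 (310), Sod2 (73.5) and Mpo (0.777), and the 3 genes from 1245 to 1290 could not be ordered without an error.

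**Figure D2:**
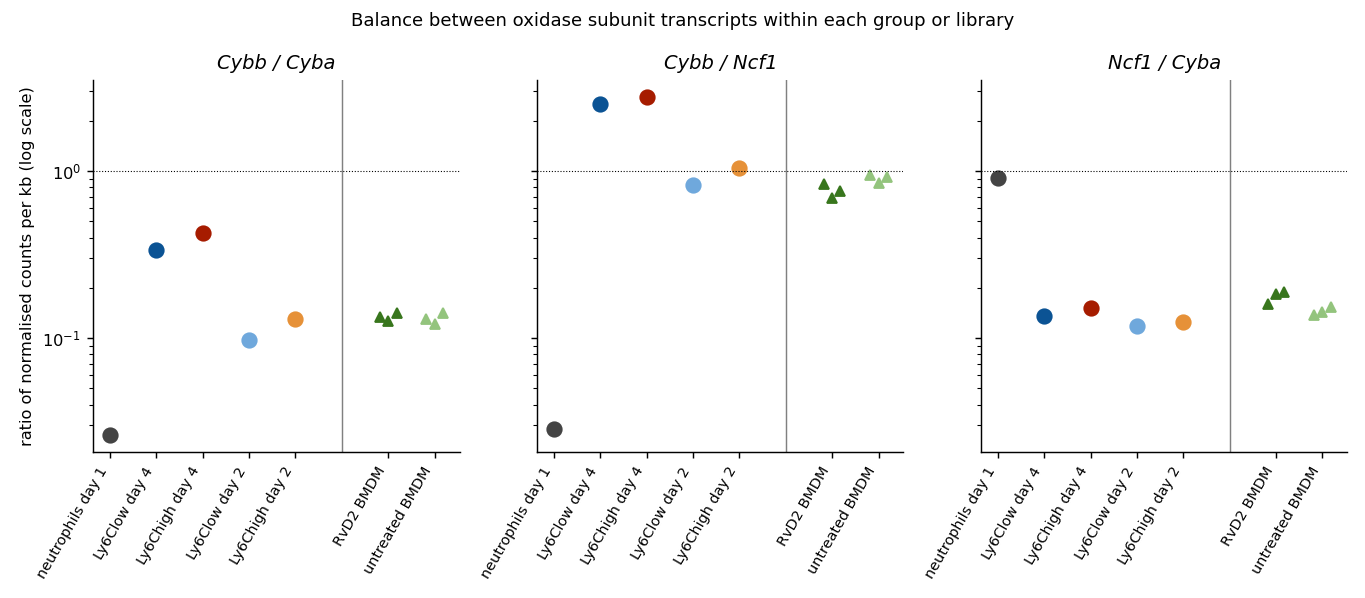
Ratio of normalised counts per kilobase (log y axis) between pairs of oxidase genes in the 5 muscle groups (circles, authors' means) and in single BMDM libraries (triangles, 3 per group, RvD2 left of untreated). Cybb over Cyba is 0.0263 in neutrophils and 0.426 in Ly6Chigh cells at day 4, and Ncf1 over Cyba is near 1 in neutrophils only. Lengths are the union of annotated exons, and how near a ratio is to 1 depends on them.

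Neutrophils were compared with each macrophage group, and these 4 comparisons share the neutrophil column. Cell type and day cannot be told apart here, since neutrophils came from day 1 and macrophages from days 2 and 4. A gene is named called where the groups differed at least 2-fold after 10 was added to each normalised count, with the higher group at 50 or more. Of the 7 members at that level (all but Mpo), 4 were called higher and 1 lower against Ly6Clow cells at day 2, where 31.9% of all genes were higher and 30.5% lower (62.4% in all), and likewise 4 and 1 against Ly6Clow cells at day 4, where 30.3% were higher and 30.6% lower (60.9% in all). Against Ly6Chigh cells 5 were called higher and 1 lower, both at day 2, where 30.9% of all genes were higher and 27.6% lower (58.4% in all), and at day 4, where 29.3% were higher and 29.9% lower (59.2% in all). These shares are read against a background in which most genes differed.

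Cybb was 12.3-fold and 13.2-fold lower in neutrophils than in Ly6Clow and Ly6Chigh cells at day 4, and 3.65-fold and 4.05-fold lower than in the same subsets at day 2. Ncf1 was higher in neutrophils by 7.03-fold and 7.31-fold against Ly6Clow and Ly6Chigh cells at day 4 and by 7.82-fold and 8.93-fold at day 2. Ncf4 was higher by 5.07-fold to 13.9-fold over the 4 comparisons. Rac2 was higher by 5.40-fold to 9.10-fold and Sod2 by 3.62-fold to 7.65-fold. Hvcn1 was called higher against Ly6Chigh cells, by 2.22-fold at day 4 and 5.04-fold at day 2, and had log2 ratios of 0.23 and 0.54 against Ly6Clow cells at days 4 and 2. Cyba had log2 ratios of 0.02 to 0.29 and was not called in any of the 4 comparisons.

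The summed normalised counts were 26.0 M (mega) in neutrophils and 11.9 to 12.8 M in the macrophage groups, so the scaling matters for these ratios. With the groups of each comparison set to equal totals, the ratios of the 7 members dropped by 1.02 to 1.13 on the log2 scale. The median over all genes dropped by 0.99 to 1.09. The share of calls that were higher in neutrophils moved to 24.4%, 21.9%, 22.1% and 17.7% in place of 51.2%, 52.8%, 49.8% and 49.5%, in the order Ly6Clow day 2, Ly6Chigh day 2, Ly6Clow day 4 and Ly6Chigh day 4. Ncf1, Ncf4 and Rac2 were called higher and Cybb lower in all 4 comparisons on both scalings. Sod2 was called higher in 3 of the 4 comparisons at equal totals, with a log2 ratio of 0.81 against Ly6Chigh cells at day 2. The direction of Cyba flipped, with log2 ratios of -0.76 to -1.02, and it was then called lower against Ly6Clow cells at day 2. Hvcn1 flipped against Ly6Clow cells, to -0.79 at day 4 and -0.49 at day 2, and stood at 0.02 and 1.29 against Ly6Chigh cells at days 4 and 2.

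**Figure D3:**
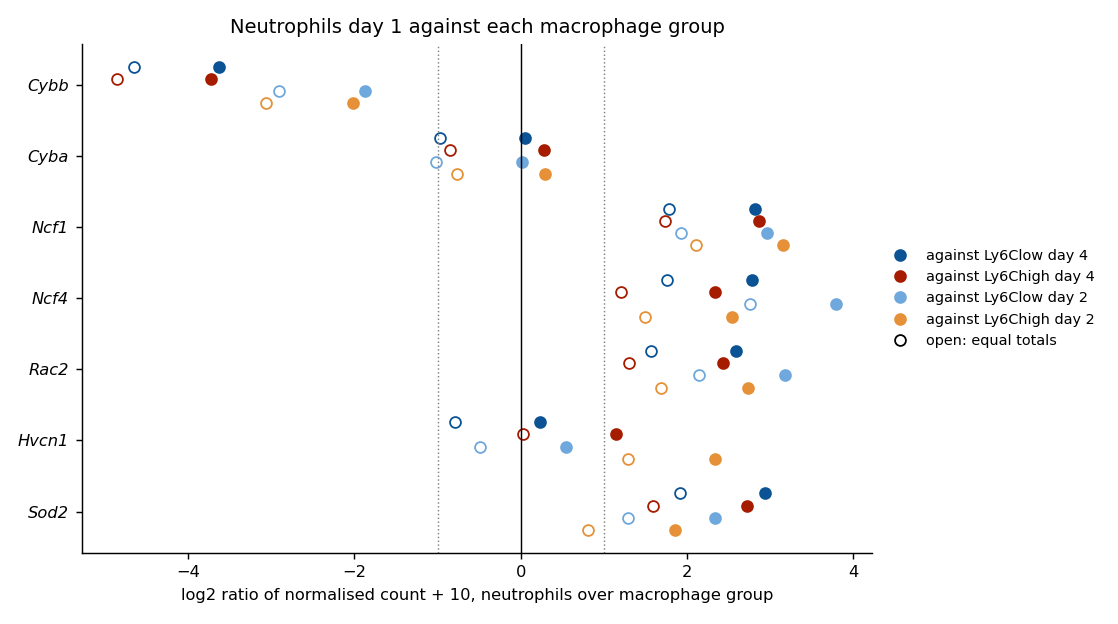
Log2 ratio of normalised count plus 10 (x axis), neutrophils over each of the 4 macrophage groups (colours), for the 7 members at 50 or more. Filled points use the values as deposited and open points equal totals, dotted lines mark 2-fold, and Cybb lies left of the lower line while Ncf1, Ncf4 and Rac2 lie right of the upper line on both scalings.

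Among the other oxidase genes, 5 of the 14 in the list reached 50 normalised counts in any muscle group. Rac1, the widely expressed Rac, was at 12.50 in neutrophils and 12.20 to 12.53 in the macrophage groups, in contrast to Rac2. BC017643 (known as Cybc1 or Eros), which in mice is needed for gp91phox protein, was at 10.98 in neutrophils and 10.11 to 10.65 in macrophages. Lrrc33 (Nrros), which in mice limits the oxidase by promoting degradation of gp91phox, was at 12.73 in neutrophils and 12.13 to 12.40 in macrophages. Neither of these regulators was called in any comparison. Nox3, Noxa1, Duox2 and Duoxa2 were listed at 0 in all 5 groups.

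Of the 24 burst activation genes, 18, 16, 16 and 15 were called higher and 1, 1, 1 and 2 lower, against Ly6Clow day 2, Ly6Chigh day 2, Ly6Clow day 4 and Ly6Chigh day 4, with median log2 ratios of 1.30 to 1.65 against 0.05 to 0.15 over all genes at that level. The shares over all genes were those given above, 29.3 to 31.9% higher and 27.6 to 30.6% lower. At equal totals 9, 5, 7 and 7 of the list were called higher and 1, 1, 3 and 2 lower, beside 11.5 to 16.6% of all genes higher and 49.7 to 53.4% lower. The list's medians were then 0.25 to 0.61, against -1.15 to -0.99 over all genes. The formyl peptide receptor genes Fpr1 and Fpr2, whose products start the burst when they bind bacterial peptides, led the list, with Fpr1 at a log2 level of 11.67 in neutrophils and 4.62 to 5.39 in macrophages and Fpr2 146-fold higher than in Ly6Clow cells at day 2. Fcgr1, the high-affinity IgG receptor gene, went the other way, 22.6-fold to 36.4-fold lower in neutrophils.

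Of 13 genes of transcription factors tied to phox gene expression, 9, 8, 8 and 7 were called higher and 2 lower in neutrophils, in the same order of comparisons and beside the same shares over all genes, with medians of 1.64 to 2.46. At equal totals 8, 6, 6 and 3 were called higher and 2, 2, 3 and 3 lower, with medians of 0.51 to 1.42. Over all genes 11.5 to 16.6% were then higher and 49.7 to 53.4% lower. Irf8, whose product acts with PU.1 on CYBB in human myeloid cells, shared the direction of Cybb in neutrophils against macrophages. Its log2 level was 5.75 in neutrophils, against 12.35 and 12.14 in Ly6Clow and Ly6Chigh cells at day 4 and 11.32 and 11.05 at day 2, which is 33.4-fold to 82.3-fold lower in neutrophils. For Ly6Clow over Ly6Chigh cells the signs differed, with log2 ratios at days 2 and 4 of 0.27 and 0.21 for Irf8 and -0.15 and -0.10 for Cybb. Gfi1, which encodes a transcriptional repressor that acts within the granulocyte lineage, was at 8.79 in neutrophils and between 0 and 2.56 in macrophages. Sfpi1, the PU.1 gene, was at 12.86 in neutrophils and 11.89 to 12.20 in macrophages. Whether these factors bear on the members was not tested.

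Of 21 genes that handle oxidants, 18 or 19 were at 50 or more, and 7 were called higher in neutrophils in each comparison and 8, 8, 7 and 7 lower, in the same order and beside the same 29.3 to 31.9% of all genes higher and 27.6 to 30.6% lower. At equal totals 4, 4, 7 and 5 were higher and 11, 10, 10 and 11 lower, beside 11.5 to 16.6% of all genes higher and 49.7 to 53.4% lower. Gsr, glutathione reductase, was at 14.36 in neutrophils and 8.20 to 10.36 in macrophages, 15.9-fold to 69.1-fold higher, and had the largest ratio among the genes called higher in all 4 comparisons. Among the lowest were the peroxiredoxin gene Prdx4, 22.8-fold lower than in Ly6Clow cells at day 2 and 15.2-fold lower than in Ly6Chigh cells at day 4, Prdx2, 16.3-fold lower than in Ly6Chigh cells at day 2, and the glutathione peroxidase gene Gpx3, 32.8-fold lower than in Ly6Clow cells at day 4.

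The change with time was then followed within each macrophage subset. In Ly6Chigh cells, day 4 against day 2, 2 of the 7 members were called higher and 0 lower, beside 9.67% of 11618 genes higher and 3.74% lower (13.4% in all). Cybb was 3.26-fold higher at day 4 (log2 ratio 1.70) and Hvcn1 2.27-fold higher (1.18), while Sod2 had a log2 ratio of -0.86, and Cyba one of 0.00. In Ly6Clow cells 2 members were called higher and 0 lower, beside 8.08% of 11560 genes higher and 3.24% lower (11.3% in all). Cybb was 3.38-fold higher at day 4 (1.76) and Ncf4 2.03-fold higher (1.02), with Ncf4 at 0.99 and no longer called when 50 was added in place of 10, while Sod2 stood at -0.60 and Cyba at -0.03. Cybb thus had a higher value at day 4 in both subsets, by similar ratios. The fibroblast transcripts were far higher at day 4 than at day 2 in both subsets, at 27258 against 301 in Ly6Chigh and 2194 against 102 in Ly6Clow cells, and the muscle transcripts were higher too, at 694 against 251 in Ly6Chigh and 1195 against 306 in Ly6Clow cells. In Ly6Chigh cells, 6 of 6 T and NK cell markers at 50 or more were called higher at day 4. So were 8 of 9 dendritic cell markers and the B cell marker Cd79b, while 0 genes of these lists were called in Ly6Clow cells. Of 6 neutrophil markers at 50 or more, 1 was called higher and 3 lower in Ly6Chigh cells, and 0 higher and 5 lower in Ly6Clow cells. The shares over all genes are those given above. The part of all these transcripts in the values of Cybb, Hvcn1, Ncf4 and Sod2 was not tested.

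Among the transcription factors, Irf1, an interferon-induced factor, had the largest ratio with time, 3.00-fold higher at day 4 in Ly6Chigh cells (log2 levels of 11.17 and 9.57 at days 4 and 2) and 4.04-fold higher in Ly6Clow cells (10.87 and 8.84). Cebpb went the other way in Ly6Chigh cells, 2.07-fold lower at day 4. C5ar1, the complement C5a receptor gene, was 2.93-fold lower at day 4 in Ly6Chigh and 2.21-fold lower in Ly6Clow cells, whereas Clec7a, which encodes the beta-glucan receptor dectin-1, was 8.58-fold higher in Ly6Clow cells. Prkca, a protein kinase C gene, was 5.02-fold higher at day 4 in Ly6Chigh cells, at log2 levels of 6.08 and 2.45 at days 4 and 2. This day 4 group also held the fibroblast and T and NK cell transcripts, whose part in the Prkca values was not tested. The peroxiredoxin gene Prdx6, whose product also supports oxidase assembly, was 2.03-fold lower at day 4 in Ly6Chigh and 2.11-fold lower in Ly6Clow cells. Sod3, extracellular superoxide dismutase, had log2 levels of 6.92 in Ly6Chigh cells at day 4 and 1.13 at day 2, beside the fibroblast transcripts of that day 4 group, and Gpx3 was 2.39-fold higher at day 4 in Ly6Clow cells.

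The subsets were next compared within each day. At day 2, Ly6Clow against Ly6Chigh cells, 1 member was called higher and 1 lower of 7, beside 5.90% of 11275 genes higher and 5.46% lower (11.4% in all). In Ly6Clow cells Hvcn1 was 3.46-fold higher (a log2 ratio of 1.79) and Ncf4 2.39-fold lower (-1.26). Rac2 (-0.45), Sod2 (-0.48), Cybb (-0.15), Ncf1 (0.19) and Cyba (0.27) were under the limit. At day 4, 0 of the 7 members were called, beside 2.98% of 11764 genes higher and 4.22% lower (7.21% in all), and the signs of Hvcn1 (0.92) and Ncf4 (-0.44) were those of day 2. Ncf1 had a log2 ratio of 0.05, which flipped to -0.05 at equal totals, where all ratios of that comparison moved by -0.10. Whether a subset difference itself changed between the days was not tested.

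In the other lists at day 2, Fpr2 was 6.10-fold lower in Ly6Clow cells, Gsr 2.72-fold lower and the NF-kB gene Rel 2.41-fold lower, while Gpx3 was 2.40-fold higher. At day 4 Fpr2 was 2.27-fold lower, Sod3 6.50-fold lower and Gpx3 2.29-fold higher in Ly6Clow cells. The list of burst activation genes had 0 higher and 2 lower of 22 at 50 or more at day 2 and 0 higher and 1 lower of 23 at day 4, beside the shares of all genes given above (5.46% lower at day 2 and 4.22% at day 4), so nothing is read from these counts.

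Ly6Clow cells at day 4 against Ly6Chigh cells at day 2 span the transition named in the study title, and this comparison shares groups with those above. Of the 7 members 2 were called higher and 1 lower, beside 12.6% of 11628 genes higher and 6.66% lower (19.2% in all). Hvcn1 was 4.29-fold higher in Ly6Clow cells at day 4 (2.10), Cybb 3.04-fold higher (1.61) and Sod2 2.11-fold lower (-1.08). Ncf1 (0.35), Cyba (0.23), Rac2 (0.14) and Ncf4 (-0.24) were under the limit. Irf8 was 2.46-fold higher and Cebpb, a factor gene of inflammatory myeloid cells, 2.94-fold lower, Gpx3 was 5.74-fold higher and Gsr 4.34-fold lower, and C5ar1 was 3.98-fold lower.

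**Figure D4:**
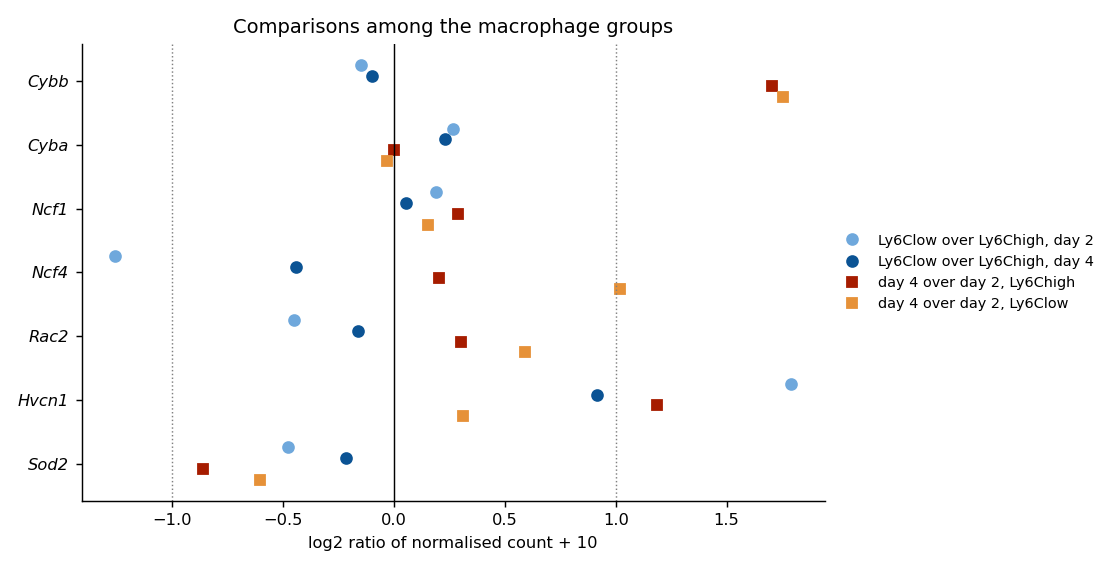
Log2 ratio of normalised count plus 10 (x axis) for the 7 members at 50 or more in 4 comparisons among macrophage groups, circles for Ly6Clow over Ly6Chigh and squares for day 4 over day 2. Dotted lines mark 2-fold, Cybb passes it with time in both subsets (1.70 and 1.76), and Hvcn1 passes it between subsets at day 2 (1.79) and with time in Ly6Chigh cells (1.18).

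The likeness of patterns was measured as the mean absolute difference between log2 levels over the 5 groups, each gene centred on its own mean. Within the family Ncf1 and Rac2 were nearest (0.23), followed by Ncf4 and Rac2 (0.24) and Ncf1 and Ncf4 (0.40), and Cybb and Ncf1 were farthest apart (1.85). Over 12836 genes the nearest to Cybb were Fgd2 (0.076), Nlgn2 (0.099) and Cacnb1 (0.16). The nearest to Cyba were Pex7 (0.024), Mrfap1 (0.030) and Cnot10 (0.031), all genes with nearly level values. Those nearest to Ncf1 were Gm20544, 9130221H12Rik and Rabgap1 (0.047 to 0.080), to Ncf4 Prkab2, Bcl2l11 and Nfkb2 (0.060 to 0.097), and to Rac2 Zbtb37, Nfam1 and Ing3 (0.036 to 0.047). The nearest to Hvcn1 were 1810012P15Rik, Ankrd46 and Gstm4 (0.084 to 0.18), to Sod2 AC073947.1, Lrrfip2 and Gclc (0.056 to 0.088), and to Mpo, whose values are near 0, AC238811.3, Bank1 and AC238811.1 (0.26 to 0.39). With 5 means per gene, this is a description.

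The last comparison asked whether RvD2 changed these genes in cultured macrophages within 4 h. None of the 8 did so past the threshold in the fit without a replicate block. At an adjusted p below 0.05, 0 were higher and 0 lower, where limma called 283 of 15239 genes (1.86%), 121 higher (0.794%) and 162 lower (1.06%). At an unadjusted p below 0.05 there was 1 member, Ncf1, with 15.6% of all genes there. The labels name separate samples but do not say that these were separate animals or cultures, so the p-values measure only the spread between these libraries, which may be technical. Libraries held an estimated 9.05 to 14.3 M gene reads.

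Ncf1 had log2 normalised counts of 11.44, 11.72 and 11.86 in RvD2-treated cells, against 11.10, 11.37 and 11.53 in untreated cells. The groups overlapped, since the lowest treated library lay below the highest untreated one. The mean difference was 0.34 (95% interval 0.05 to 0.63, SE 0.13), with an adjusted p of 0.242 by limma. Each treated library lay above the untreated library of the same replicate number. With that number as a block, Ncf1 passed the threshold (adjusted p = 0.00152 by limma). Whether the numbers mark pairs is not known. Rac2 had log2 normalised counts of 10.45, 10.49 and 10.51 in RvD2-treated cells, against 10.53, 10.56 and 10.84 in untreated cells. It was the one member whose groups did not overlap, where 21.0% of all genes did not, and its difference was -0.16 (-0.35 to 0.03, adjusted p = 0.411 by limma).

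Cybb had log2 normalised counts of 11.85, 11.86 and 12.12 in RvD2-treated cells, against 11.68, 11.79 and 12.07 in untreated cells, with a difference of 0.10 (-0.15 to 0.34, adjusted p = 0.759 by limma). Cyba was at 12.27, 12.35 and 12.45 in RvD2-treated cells, against 12.13, 12.35 and 12.41 in untreated cells (0.06, -0.13 to 0.24, adjusted p = 0.812 by limma). The upper ends of these intervals leave room for increases of 1.27-fold in Cybb and 1.18-fold in Cyba. Ncf4 was at 9.74, 9.89 and 10.08 in RvD2-treated cells, against 9.56, 9.84 and 9.86 in untreated cells (0.15, -0.09 to 0.39, adjusted p = 0.571 by limma).

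Hvcn1 was at 9.91, 10.06 and 10.37 in RvD2-treated cells, against 9.98, 10.48 and 10.35 in untreated cells (-0.15, -0.49 to 0.18, adjusted p = 0.690 by limma). Sod2 was at 9.94, 9.85 and 10.01 in RvD2-treated cells, against 9.60, 9.89 and 10.04 in untreated cells (0.09, -0.15 to 0.33, adjusted p = 0.767 by limma). Both genes had overlapping groups. Mpo was low, with 18.2, 6.44 and 33.9 normalised counts in RvD2-treated cells, against 18.3, 16.3 and 35.95 in untreated cells, and its difference of -0.48 had a wide interval (-1.78 to 0.82, adjusted p = 0.768 by limma), with an SD of 1.21 over the RvD2-treated and 0.61 over the untreated libraries (log2 scale, n = 3 each). Over the 8 members 5 differences were above 0 and 3 below, with a median of 0.07, against -0.003 over all tested genes.

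Of the related lists in BMDM, none of the 8 other oxidase genes tested passed the threshold. Rac1 had a difference of -0.04 and BC017643 one of 0.24 with groups that did not overlap (adjusted p = 0.0786 by limma). In the oxidant enzyme list, 0 of 18 tested genes were higher and 2 were lower with RvD2. Gsr fell to 10.44, 10.49 and 10.40 in RvD2-treated cells, against 10.88, 11.03 and 10.93 in untreated cells (difference -0.50, -0.64 to -0.37, adjusted p = 0.00693 by limma). Txnrd1, which encodes cytosolic thioredoxin reductase, fell to 13.08, 13.37 and 13.15 in RvD2-treated cells, against 13.68, 13.81 and 13.78 in untreated cells (-0.55, -0.74 to -0.37, adjusted p = 0.0138 by limma). The groups of both genes did not overlap, and both calls were lost with no mean-variance trend (adjusted p of 0.0609 and 0.0908), while that of Txnrd1 was also lost without RvD2 replicate 3 (0.0838), untreated replicate 2 (0.0735) or untreated replicate 3 (0.0517). None of the 24 burst activation genes, 12 transcription factor genes or 5 primary granule genes tested passed the threshold (0 in each list).

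**Figure D5:**
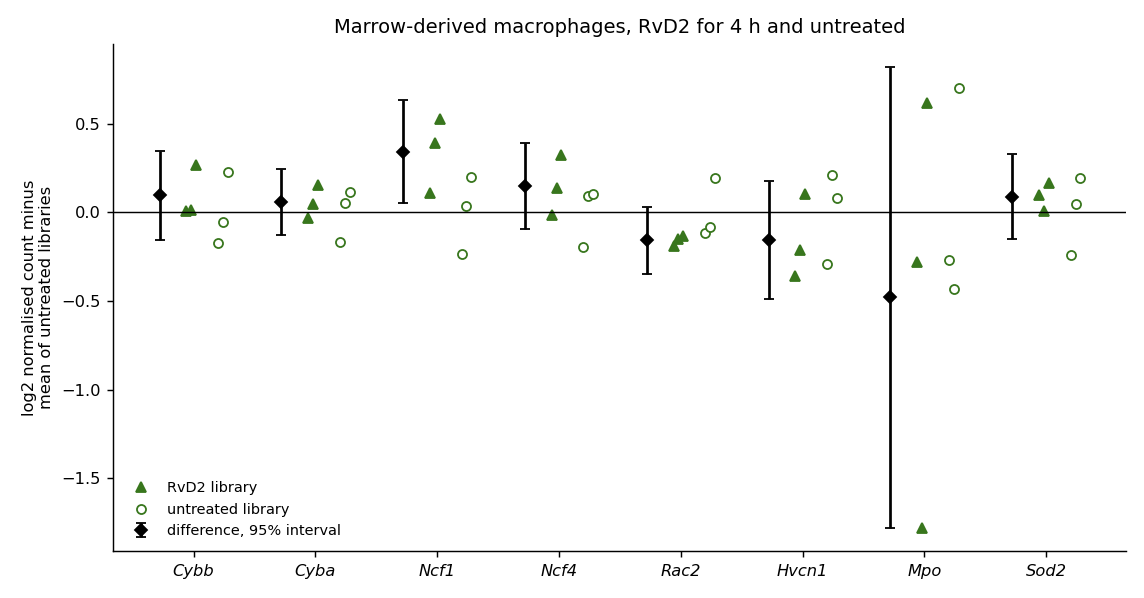
Log2 normalised count of each BMDM library minus the mean of the untreated libraries (y axis), for RvD2-treated (filled triangles) and untreated (open circles) libraries, 3 each, with the fitted difference and its 95% interval (diamond and bar). All intervals except that of Ncf1 (0.05 to 0.63) include 0, and that of Mpo is the widest.

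The balance of subunits was also computed in each BMDM library. The tables were normalised separately, but a ratio within a library does not depend on that. Cybb stood per kilobase at 0.127 to 0.142 of Cyba in RvD2-treated and 0.122 to 0.141 in untreated libraries, and at 0.693 to 0.840 of Ncf1 in RvD2-treated and 0.848 to 0.943 in untreated libraries. Ncf1 was at 0.160 to 0.188 of Cyba in RvD2-treated and 0.138 to 0.154 in untreated libraries. On the log2 scale the balance of Cybb over Ncf1 was -0.40 ± 0.14 with RvD2 and -0.15 ± 0.08 untreated (SD, n = 3 each), a difference of -0.25 with an exact two-sided permutation p of 0.1, the smallest that 3 against 3 libraries can give. Ncf1 over Cyba differed by 0.29 and Ncf4 over Ncf1 by -0.19, each with the same exact p of 0.1, and Cybb over Cyba by 0.04 (exact permutation p = 0.7). After Benjamini-Hochberg adjustment over these 4 pairs the exact permutation p was 0.133 for the first 3 and 0.7 for the last, so no balance passed the threshold, nor could it in this design.

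BMDM also held transcripts of other cell types. Their 10 fibroblast markers summed to 64245 normalised counts with RvD2 and 62759 untreated, and their 14 neutrophil markers to 7594 with RvD2 and 10078 untreated, with 0 of 9 fibroblast and 0 of 11 neutrophil markers tested past the threshold. In untreated BMDM, Prss57 stood at log2 levels of 6.71 to 6.86 and Fcnb at 5.04 to 6.15, both picked after their values were seen. Of the 9 primary granule genes measured, 2 were at 50 or more in untreated BMDM, among them Lyz2. Bpi was listed at 0, and 5 of the 9 were high enough to be tested. The part of precursor transcripts and of those of other cell types in the Mpo values was not tested.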

How the data were processed

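Poly-A RNA was sequenced after TruSeq library preparation, per the labels' protocols. Per the submitters' processing notes, the tools were TopHat2 2.0.7 and DESeq and the build mm10, while parameters and the gene annotation are not given in the sources here. The deposited values are log2 of normalised counts, with values under 1 listed as 0: 1 column per library for 6 BMDM libraries, and 1 mean of log2 values per group for 5 muscle groups. The labels put 25 samples in 9 groups, and 2 groups with 6 samples were not analysed here. No column (0) belonged to other samples. Of 38087 identifiers 36308 are in GENCODE M21, which gave coordinates (GRCm38/mm10) and exon lengths (the union of annotated exons). In the muscle file, 2 cells hold a date and count as missing.

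For BMDM, limma 3.58.1 (R 4.3.3) was fitted to the log2 values (mean normalised count of at least 10, mean-variance trend, two-sided, Benjamini-Hochberg adjustment over all 15239 genes, threshold 0.05). The steps between low values gave read depths, but 42.8 to 57.3% of low values lay within 0.02 of whole reads, so no count test was run. The script was tested on simulated data. No molecular identifiers were used, so depth describes counting error only. In muscle, log2 ratios of normalised count plus 10 were taken, called at 2-fold with the higher group at 50 or more. Fold values from muscle are on that scale, so they understate the change of low genes, and the depth behind the group means is unknown. Tables and figures were made in Python 3.11.15 (pandas 2.3.3, numpy 2.4.6, matplotlib 3.10.9).

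The members and the 14 gene lists were chosen with earlier results of these data known. All members, and of the oxidase list the core subunit and Rac genes, were named by rule, except an item that is not reported here. Of each other pathway list the called gene with the largest ratio in each direction per comparison was named, and in BMDM each gene past the threshold. BC017643 and Lrrc33 of the oxidase list were named outside these rules. Sfpi1, Fcnb, Elane, Ctsg, Prss57 and the 2 overlapping genes were added after their values were seen. The balance of subunit pairs in BMDM was also added then. Alternatives changed the pseudocount, scaling, filters, variance model, replicate block and replicates used.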

Additional observations from a re-analysis of the deposited data

How the results depend on the processing

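Of 360 muscle ratios of members under 5 alternatives, 347 kept their direction and their side of the 2-fold limit and 13 did not, most of them at equal totals in the neutrophil comparisons, as given in the report. With 50 added in place of 10, the number of genes called was 830 in place of 1281 for Ly6Clow against Ly6Chigh cells at day 2, 552 in place of 848 at day 4 and 1033 in place of 1558 for Ly6Chigh cells at day 4 against day 2, and 1 member in place of 2 was called in Ly6Clow cells at day 4 against day 2. In BMDM, 283 genes passed the threshold, against 137 with no filter, 49 with no mean-variance trend and 79 to 290 when 1 library was left out. That count was 90 without RvD2 replicate 2, 79 without RvD2 replicate 3, and 123, 106 and 140 without untreated replicate 1, 2 and 3, and 0 members passed in each. Of 111 differences of members, 107 kept their direction and side. Leaving out 1 library gave -1.03 to 0.17 for Mpo, which turned positive without RvD2 replicate 2, and -0.026 to 0.11 for Cyba and -0.032 to 0.18 for Sod2, which both turned negative without untreated replicate 1. The balance of Cybb over Cyba ranged over -0.015 to 0.094 and turned negative without RvD2 replicate 3 (-0.00066) or untreated replicate 2 (-0.015), while the other 3 balances kept their sign; these alternatives, like the gene list counts at equal totals in the report, were chosen after seeing the data. The cause of these moves was not tested.

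RvD2 and untreated libraries share replicate numbers, but same-numbered libraries deviated together only in part (correlations of 0.29, 0.02 and 0.05). Not every library correlated best with its own number. These correlations cannot settle whether the numbers mark pairs, and the fit without a block was kept as the main one. With the replicate number as a block, 1066 genes and 1 member passed the threshold, Ncf1 (difference 0.34, adjusted p = 0.00152 by limma). Without the block, leaving out 1 library gave adjusted p-values of 0.11 to 0.526 for Ncf1, and the blocked fit was not rerun with libraries left out. No paired analysis was possible for muscle because each group is 1 column. Mpo had the widest interval of the members, and how far depth limits it was not tested. In muscle nothing sets the error of any value, and the depth is unknown.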
